A study of Gallus gallus with 20 samples.

Results

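Livers of high-laying and low-laying Guangxi Ma hens were compared at 50 weeks of age, in 8 of the 20 libraries of a study of this Chinese local chicken breed. The members were the 4 libraries titled as week 50 high laying and the 4 titled as week 50 low laying, and every difference is high minus low. Of 21749 genes in the deposited table, 12808 reached at least 1 TPM (a length-corrected share of the transcripts of a library) in at least 4 of the 20 libraries and were tested. Both groups shared organ, breed and age, and no treatment, genotype or strain difference is named for either. The other 12 libraries came from week 32, week 72 high and week 72 low, 4 each, and they served here as levels at other ages. The characteristics of the week 32 libraries label them as high laying, while the design text of the series gives that age no class. The labels do not say how laying class was assigned, nor whether a library stands for a hen of its own, so the p-values speak to the spread among these libraries, part or all of which may be technical.

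In a laying hen the liver makes nearly all of the yolk. Estrogen from the ovary switches on the vitellogenin genes and the apolipoprotein genes APOV1 and APOB, and it drives the synthesis of fatty acids and cholesterol that leave the liver in yolk-targeted lipoprotein particles. Between meals and under energy demand the same cells burn fatty acids, release glucose and clear nitrogen. The liver also houses macrophages, lymphocytes and blood, whose transcripts are part of every bulk library, and in bulk tissue fewer cells of a type and less RNA per cell cannot be told apart.

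The tissue label held against the markers of hepatocytes: all 20 listed genes were tested, and they summed to between 105330 and 121088 TPM in high layers and between 94987 and 113558 TPM in low layers. Rank correlations between libraries were about the same within the groups (0.911 to 0.964, median 0.934) as between them (0.923 to 0.962, median 0.939). Some libraries stood apart. The deviations of week 50 high replicate 1 from the mean of all libraries correlated across genes with genomic gene length at Spearman rho = -0.304, and those of week 50 low replicates 3 and 4 at -0.216 and -0.164. The other 5 week 50 libraries lay between 0.021 and 0.177. TPM hides the read depth, and each week 50 library had a summed value between 764047 and 852815 TPM.

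No gene passed between the classes at week 50. By limma, a linear model with variances shared across genes, 0 of 12808 genes (0%) had an adjusted p under 0.05, and the smallest adjusted p was 0.0967. At an unadjusted p under 0.05 there were 244 higher genes (1.91%) and 148 lower genes (1.16%). Together these were 392 genes (3.06%), fewer than the 640.4 that this threshold gives on average where no gene differs. In 162 genes (1.26%) all 4 high libraries lay above all 4 low ones, and in 66 (0.515%) all lay below. The fit over all 20 libraries also called 0 genes, with 380 at an unadjusted p under 0.05. After median-ratio scaling of the libraries 0 genes were called, and 50.4% of the genes under the unadjusted threshold were higher, against 62.2% on the deposited scale. Without week 50 low replicate 4 that share was 36.6%, and without week 50 high replicate 1 it was 79.9%. The 95% interval of a gene reached a median of 0.61 log2 units to either side of its estimate.

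Several enzymes of liver metabolism were among the genes that stood most clearly above the low layers, none of them called. The 10 genes with a symbol, groups that did not overlap and the smallest p were MIR193A, AGMAT, G6PC, CAPN13, STEAP3, BHMT2, RGN, TNFSF10, MASP1 and ABLIM1. Their differences ranged from 0.71 to 1.53 log2 units, on the log2(TPM + 1) scale that understates changes of low genes. Because they were picked for not overlapping, the separation of the groups in each of them is a description. The exact two-sided permutation test of 4 against 4 libraries must then give each of them p = 0.0286, the smallest p it can give. That p was fixed by the choice of genes and adds no support.

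AGMAT, which hydrolyses agmatine to putrescine and urea (chromosome 21, 4903995 to 4906334, GRCg7b), had 84.4, 74.7, 72.98 and 74.7 TPM in high replicates 1 to 4 and 39.8, 40.5, 32.2 and 42.9 TPM in low replicates 1 to 4. The high libraries were close together and none of the low libraries came near them. The difference was 0.97 ± 0.18 log2 units (SE), a 1.96-fold higher level, with an adjusted p = 0.517 by limma. At week 72 AGMAT ranged from 49.3 to 69.1 TPM in high and 21.05 to 94.1 TPM in low layers, and at week 32 from 34.8 to 48.2 TPM, so the week 50 high libraries lay above all 4 week 32 libraries.

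G6PC, the catalytic subunit of glucose-6-phosphatase that lets the liver release glucose (chromosome 27, 5082760 to 5085879), had levels of 786, 959, 1020.5 and 742 TPM with high laying and 462, 370.1, 533 and 551 TPM with low laying. Every high library lay above every low one, with a difference of 0.88 ± 0.21. BHMT2, a homocysteine methyltransferase of the methionine cycle (chromosome Z, 22975365 to 22991303), had 786, 1158, 1038 and 582 TPM in the 4 high libraries and 351, 573, 377 and 448 TPM in the 4 low ones. High replicate 4 and low replicate 2 lay almost level. The difference of BHMT2 was 1.003 ± 0.26 at week 50 and 0.94 ± 0.32 at week 72, where the unadjusted limma p was 0.0171. STEAP3, an endosomal ferrireductase that frees iron taken up with transferrin (chromosome 7, 28019425 to 28039574), had 96.7, 70.4, 75.2 and 66.4 TPM in high replicates 1 to 4 and 45.3, 41.2, 53.8 and 36.8 TPM in low replicates 1 to 4. It differed by 0.79 ± 0.20 at week 50 and by 0.52 ± 0.22 at week 72, with an adjusted p = 0.841 and an unadjusted 0.0405 by limma at the later age. BHMT2 and STEAP3 were the 2 of these 10 genes that had an unadjusted p under 0.05 in the same direction at week 72, where 3.72% of all tested genes were higher at that threshold and 2.05% lower.

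RGN, the calcium-binding liver protein regucalcin (chromosome 1, 130223016 to 130243170), had levels of 569, 529.8, 653 and 557 TPM with high laying and 429.6, 334, 336 and 318 TPM with low laying. MASP1, a gene of the lectin pathway of complement (chromosome 9, 14559128 to 14576650), had 60.3, 60.2, 65.9 and 51.3 TPM in the 4 high libraries and 35.7, 27.9, 46.5 and 28.6 TPM in the 4 low ones. TNFSF10, a death ligand of the tumour necrosis factor family (chromosome 9, 18994355 to 19003010), had 161, 184, 214 and 216 TPM in high replicates 1 to 4 and 134, 94.5, 132 and 99.4 TPM in low replicates 1 to 4. All 3 were abundant liver transcripts that differed by 0.71 ± 0.19, 0.79 ± 0.21 and 0.75 ± 0.20, with low replicate 1 of RGN and low replicate 3 of MASP1 nearest to the high group. The actin-binding gene ABLIM1 (chromosome 6, 28606107 to 28788420) ranged from 10.1 to 18.7 TPM in high and 5.10 to 9.30 TPM in low layers and differed by 1.02 ± 0.28. The calpain protease gene CAPN13 (chromosome 3, 8050658 to 8085858) had levels of 4.33, 2.69, 7.63 and 0.916 TPM with high laying and 0.352, 0.425, 0.452 and 0.693 TPM with low laying. CAPN13 differed by 1.53 ± 0.39 at week 50 and by -0.14 ± 0.49 at week 72. Its week 50 high libraries spread from just above the low group to over 7 TPM.

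MIR193A led the higher genes by p. It is a microRNA hairpin entry of 77 bases (chromosome 18, 7050372 to 7050448), so TPM, which divides by length, gives each of its reads much weight. It had 1.41, 1.64, 1.64 and 1.63 TPM in the 4 high libraries and 0, 0, 0 and 0 TPM in the 4 low ones, a difference of 1.37 ± 0.18 with an adjusted p = 0.0967. It was listed at 0 in 13 of the 20 libraries, in all 4 week 72 high ones among them, and ranged from 0 to 3.18 TPM at week 32. With 7 libraries above 0, 4 of them week 50 high ones, it passed the filter of 4 libraries only through the group where it was high, so its p supports nothing here. Libraries enriched for mRNA do not measure mature microRNAs, and no fold is given against a group listed at 0. With a pseudocount of 0.1, without the filter on low values, or with library weights its adjusted p was 0.0279, 0.00135 and 0.0238, which are given as descriptions because most of its values are 0. The tRNA gene TRNAG-GCC_4, chosen after its values were seen, was listed at 0 in all high layers and had 1.74, 1.72, 1.67 and 3.24 TPM in low layers.

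A chemokine, an epithelial transcription factor and an AP-1 subunit were among the genes that stood most clearly below the low layers, none of them called. The 10 genes chosen by the same rule were CCL20, GDF15, RAB7B, ELF3, JUND, THRSPB, CA2, IER3, NOX1 and FGFBP1, with differences from -0.80 to -2.20. CCL20, a chemokine that draws lymphocytes and dendritic cells (chromosome 9, 9198467 to 9208358), had 1.14, 1.63, 1.48 and 1.03 TPM in high replicates 1 to 4 and 7.37, 4.56, 7.37 and 4.72 TPM in low replicates 1 to 4. Every low library lay well above the highest high library, and the difference was -1.57 ± 0.24 with an adjusted p = 0.191. At week 72 it ranged from 0.593 to 16.9 TPM in low and 0.290 to 4.79 TPM in high layers, so the classes overlapped there.

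ELF3, an epithelial transcription factor induced in inflammation (chromosome 26, 360419 to 364358), had levels of 12.7, 11.2, 5.18 and 12.7 TPM with high laying and 33.2, 29.6, 155 and 37.4 TPM with low laying. Low replicate 3 stood far above the other low libraries, and the remaining low libraries still lay above all high ones. The difference was -2.20 ± 0.49 with all libraries and -1.65 without low replicate 3. JUND, a subunit of the AP-1 transcription factor (chromosome 28, 4423543 to 4425136), had 25.7, 16.7, 29.2 and 24.4 TPM in the 4 high libraries and 40.2, 53.1, 122 and 134 TPM in the 4 low ones. Low replicates 3 and 4 carried the highest JUND values, and at week 32 it ranged from 10.3 to 74.6 TPM within a single group. GDF15, a secreted marker of cell stress (chromosome 28, 4397007 to 4399674), had 3.03, 2.51, 5.45 and 3.45 TPM in high replicates 1 to 4 and 6.97, 10.1, 9.36 and 11.5 TPM in low replicates 1 to 4. It differed by -1.21 ± 0.26, and JUND by -1.67 ± 0.38. IER3, an early response gene linked to survival under stress (chromosome 16, 75985 to 79346), had levels of 14.97, 20.6, 17.5 and 20.7 TPM with high laying and 26.98, 31.2, 41.5 and 31.8 TPM with low laying, a difference of -0.80 ± 0.21.

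THRSPB, a relative of Spot 14, the thyroid hormone responsive regulator of fat synthesis (chromosome 1, 192749541 to 192750255), had 42.1, 81.3, 91.6 and 114 TPM in the 4 high libraries and 128, 204, 178 and 191 TPM in the 4 low ones. High replicate 4 and low replicate 1 were nearest, and the difference was -1.15 ± 0.30. THRSPB belongs to a family of similar genes, so reads of its copies may have been divided unevenly. CA2, a carbonic anhydrase abundant in red blood cells and other tissues (chromosome 2, 122451344 to 122467708), had 59.4, 39.96, 34.8 and 37.1 TPM in high replicates 1 to 4 and 129.5, 67.5, 68.7 and 84.6 TPM in low replicates 1 to 4. CA2 differed by -0.996 ± 0.26, and at week 72 by -0.45 ± 0.21 with an adjusted p = 0.851 and an unadjusted 0.058 by limma. RAB7B, a GTPase of late endosomes (chromosome 26, 2384654 to 2387736), ranged from 0.206 to 0.518 TPM in high and 1.04 to 2.43 TPM in low layers. NOX1, an NADPH oxidase that makes superoxide (chromosome 4, 5102977 to 5107392), ranged from 0.713 to 1.56 TPM in high and 1.95 to 4.33 TPM in low layers. Both were near the detection threshold in high layers. FGFBP1, a carrier of fibroblast growth factors (chromosome 4, 76114964 to 76117504), had levels of 0.0841, 0, 0.0977 and 0.0973 TPM with high laying and 3.35, 3.02, 0.460 and 17.2 TPM with low laying. It was listed at or near 0 in every high library, and it also reached 21.5 TPM in 1 of the week 32 libraries.

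**Figure D1:**
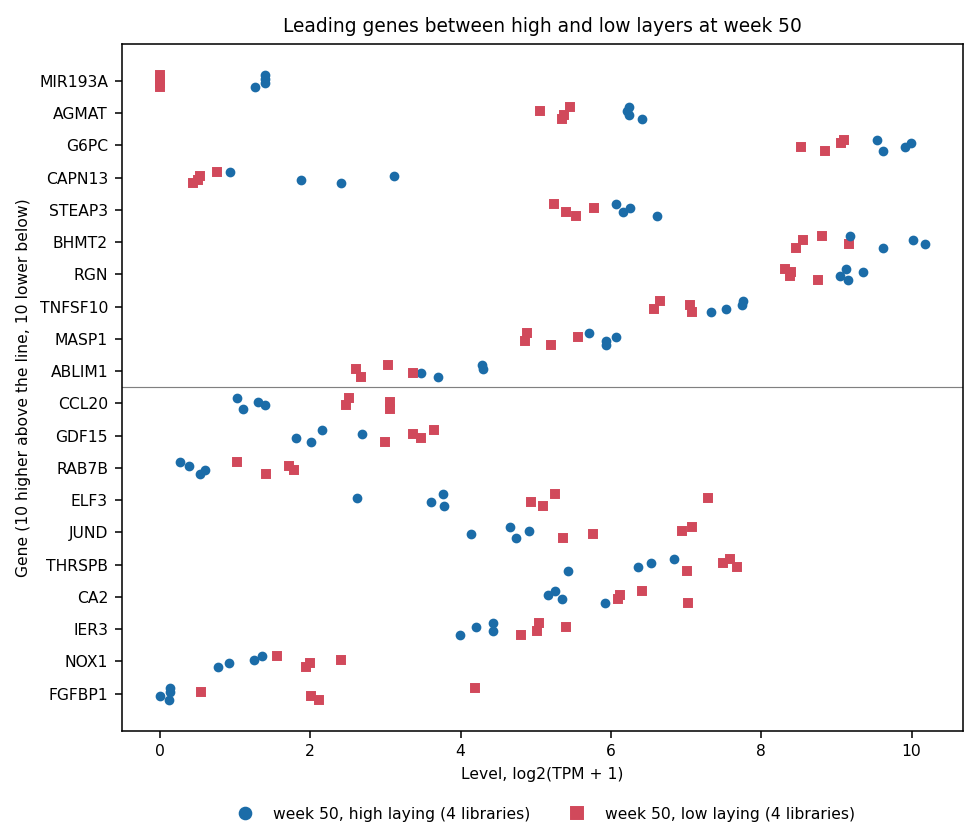
Level of the 20 leading genes in the 8 week 50 libraries, as log2(TPM + 1) on the horizontal axis, 1 symbol per library (circles high laying, squares low laying). The groups do not overlap in any row because the genes were chosen that way, and the width of the gap differs between genes.

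The week 72 values entered the choice of these genes only through the filter on low values over all 20 libraries, though earlier results of both ages were known. Of the 20, 16 had the same sign at week 72 as at week 50, 7 of the 10 higher and 9 of the 10 lower genes, while 59.4% of all tested genes had the same sign at both ages. None of the 10 lower genes reached an unadjusted p under 0.05 at week 72. For the difference between ages 3 of the 10 higher and 1 of the 10 lower genes did, against 2.37% of all genes. That test contains the week 50 values by which the genes were chosen, so these counts are a description. Among all 244 genes under the unadjusted threshold as higher at week 50, 168 were positive at week 72 and 29 of those had an unadjusted p under 0.05. Among the 148 lower genes 92 were negative at week 72 and 15 of those had an unadjusted p under 0.05. Over all tested genes 55.8% were positive and 44.1% negative at week 72. At an unadjusted p under 0.05 there, 3.72% of all tested genes were higher and 2.05% lower.

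**Figure D2:**
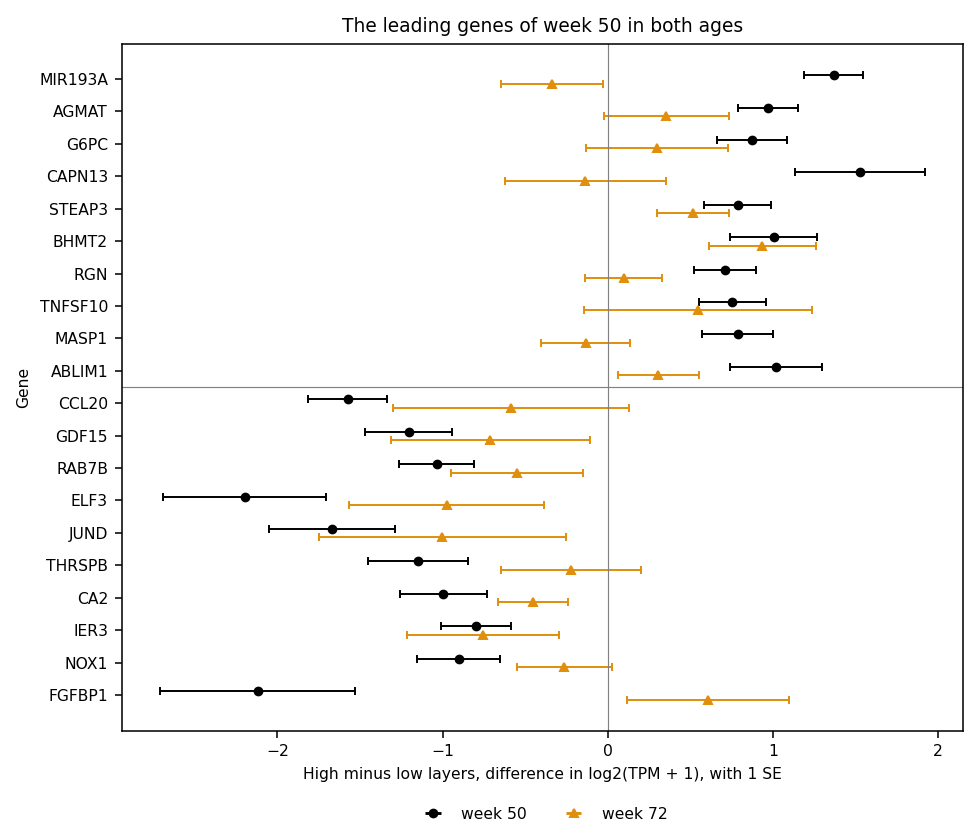
High minus low difference in log2(TPM + 1) with 1 SE for the 20 leading genes of week 50, at week 50 (circles) and week 72 (triangles), 4 libraries per class and age. Week 72 values have the week 50 sign in 16 of 20 genes and are mostly smaller, with BHMT2 at 0.94 and STEAP3 at 0.52.

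Yolk precursors, which the liver exports for the growing follicles, overlapped between the classes. None of the 15 members had an unadjusted p under 0.05, 10 were positive and 5 negative, and their median difference was 0.076 against 0.049 over all genes tested. The median ranged from -0.056 without low replicate 3, where 7 were positive and 8 negative, to 0.27 without low replicate 2. VTG2, the most abundant vitellogenin (chromosome 8, 16204330 to 16225309), had 11996, 13687, 6344 and 14774 TPM in the 4 high libraries and 9062, 13283, 4528 and 9164 TPM in the 4 low ones. High replicate 3 and low replicate 3 were the lowest of their groups, and the groups overlapped. Its difference was 0.41 ± 0.39, with a 95% interval from -0.45 to 1.26. VTG1 (chromosome 8, 18326424 to 18369074) had 4004, 6579, 2384 and 5439 TPM in high replicates 1 to 4 and 3767, 6639, 595 and 3708 TPM in low replicates 1 to 4, a difference of 0.66 ± 0.65 that became -0.074 without low replicate 3. VTG3 (chromosome 8, 16254240 to 16275339) had levels of 2707, 1799, 496 and 2179 TPM with high laying and 1231, 1934, 986 and 839 TPM with low laying, a difference of 0.35 ± 0.49. The vitellogenins are similar in sequence, and reads may have been split between them.

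APOV1, the apolipoprotein of yolk-targeted very low density lipoprotein (chromosome 1, 83462896 to 83465817), had 42329, 41907, 27789.7 and 52642 TPM in the 4 high libraries and 35218, 34621, 11755 and 48849 TPM in the 4 low ones. It differed by 0.47 ± 0.45, with low replicate 3 the lowest library again. APOB, the structural protein of these particles, had 272, 2182, 1894 and 2287 TPM in high replicates 1 to 4 and 1867, 2134, 343 and 1389.6 TPM in low replicates 1 to 4. Its difference was 0.11 ± 0.74, and high replicate 1 and low replicate 3, the libraries whose values leaned most against long genes, stood far below the rest. APOB spans 35476 bases of the genome, and the part of gene length in its values was not tested. MTTP, which loads lipid onto APOB, differed by 0.076 ± 0.36, and high replicate 1 was also its lowest library. The carriers TF, RBP, TTR, BTD and RBP4 differed by 0.23 ± 0.31, 0.030 ± 0.34, -0.33 ± 0.28, 0.47 ± 0.31 and 0.065 ± 0.39. The clustered apolipoprotein genes APOA1, APOA4, APOA5 and APOC3 differed by -0.56 ± 0.38, -0.63 ± 0.66, -0.082 ± 0.36 and -0.65 ± 0.46. Every one of these intervals crossed 0. ESR1, the estrogen receptor of the hen liver, chosen after its values were seen, had levels of 7.67, 17.6, 26.1 and 17.6 TPM with high laying and 5.76, 18.6, 6.63 and 15.9 TPM with low laying, a difference of 0.56 ± 0.43.

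Most cholesterol synthesis genes had lower mean values in high layers. Of 18 tested members 15 were negative, the median difference was -0.21, 3 had an unadjusted p under 0.05 as lower, against 1.16% of all genes, and none as higher. HSD17B7, a late enzyme of the pathway (chromosome 8, 3807059 to 3812894), had 53.7, 69.6, 29.1 and 60.9 TPM in the 4 high libraries and 85.2, 88.8, 110 and 167 TPM in the 4 low ones. Its groups did not overlap, and the difference was -1.08 ± 0.31. ACAT2, which makes acetoacetyl-CoA, differed by -0.69 ± 0.27, and MVD, the decarboxylase of the mevalonate arm, by -0.92 ± 0.37. Single libraries moved the median: it was -0.12 without high replicate 1, -0.39 without high replicate 2, -0.016 without high replicate 3, -0.43 without high replicate 4, -0.069 without low replicate 2 and -0.41 without low replicate 4. Without high replicate 3 the signs were 9 against 9 and 1 member was under the threshold, as was 1 in the fit over all 20 libraries.

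At week 72 all 18 members were positive with a median of 1.56, and 12 had an unadjusted p under 0.05 as higher, against 3.72% of all genes. In the test of the difference between ages, week 72 minus week 50, 17 of the 18 members were positive and 13 had an unadjusted p under 0.05. None passed over all genes: limma called 0 of 12808 genes (0%) for this difference, and 304 genes (2.37%) had an unadjusted p under 0.05. Without week 72 low replicate 3, the low-class library with yolk genes at the level of high layers, 18 genes were called, among them VTG1, VTG2, VTG3, HSD17B7 and 8 other members of the cholesterol synthesis list. That library also sat with the high layers for the cholesterol list, so these calls rest on leaving it out.

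**Figure D3:**
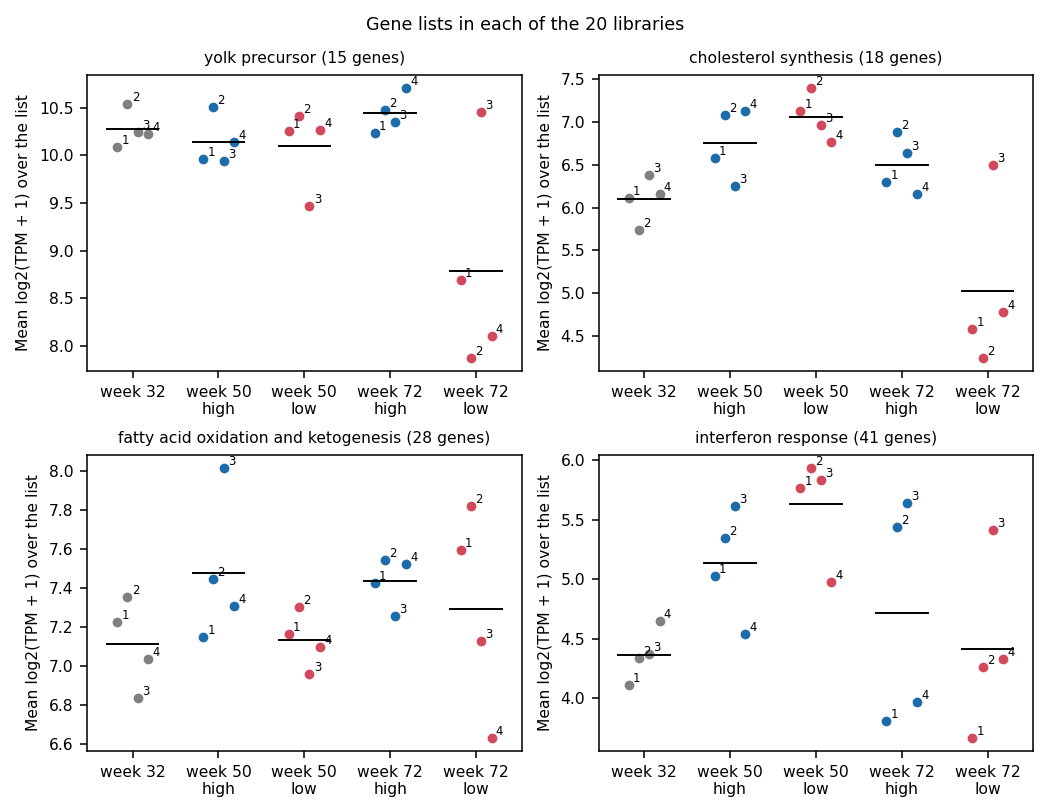
Mean log2(TPM + 1) over the tested members of 4 gene lists in each of the 20 libraries, by group, with the replicate number beside each point and a line at the group mean. At week 50 the classes overlap in all 4 panels, and at week 72 low replicates 1, 2 and 4 lie apart from all other libraries for yolk precursors and cholesterol synthesis.

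Other lipid genes were mixed. In fatty acid synthesis 1 of 23 members, THRSPB, had an unadjusted p under 0.05, against 1.16% of all genes as lower, and the median was -0.039. FASN, the fatty acid synthase, had 129, 383, 368 and 428 TPM in high replicates 1 to 4 and 588, 379, 263 and 655 TPM in low replicates 1 to 4. High replicate 1 was again far below the other high libraries. The regulator SREBF1 differed by -0.38 ± 0.29 and the citrate carrier SLC25A1 by 0.27 ± 0.18. Of 20 triglyceride and lipid droplet genes 12 were positive. MOGAT1, an acyltransferase of triglyceride synthesis, differed by 0.84 ± 0.30, and CIDEA, which enlarges lipid droplets, by 0.69 ± 0.25. PLIN2, the coat protein of hepatocyte lipid droplets, had levels of 131, 180, 188 and 152 TPM with high laying and 257, 614, 389 and 161 TPM with low laying. Low replicate 4 lay within the high range, and the difference was -0.96 ± 0.36 at week 50 and -0.998 ± 0.42 at week 72. The unadjusted limma p of PLIN2 was 0.0216 and 0.0402. PNPLA3, an acyl hydrolase of droplets, differed by -0.89 ± 0.44 and did not reach that threshold.

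Among 12 genes that remodel plasma lipoproteins 2 had an unadjusted p under 0.05, both lower, against 1.16% of all genes in that direction. ANGPTL4, a secreted inhibitor of lipoprotein lipase, had 59.8, 29.2, 7.31 and 16.03 TPM in the 4 high libraries and 53.4, 69.4, 45.3 and 108 TPM in the 4 low ones. High replicate 1 overlapped the low group, and the difference was -1.56 ± 0.53 at week 50 and 0.81 ± 0.42 at week 72. The test of this change of ANGPTL4 between ages had an adjusted limma p of 0.99997, 0.033 before adjustment. CETP, which exchanges cholesteryl ester between particles, had 1.79, 1.39, 3.34 and 0.314 TPM in high replicates 1 to 4 and 9.63, 1.83, 7.42 and 2.24 TPM in low replicates 1 to 4. It differed by -1.11 ± 0.49 at week 50 and by -2.50 ± 0.84 at week 72, where the unadjusted limma p was 0.0147. LCAT, the cholesterol-esterifying enzyme of plasma, differed by 0.57 ± 0.37 at week 50 and -1.36 ± 0.59 at week 72. The test of that change between ages had an adjusted limma p of 0.99997, 0.0147 before adjustment. For ANGPTL4 and LCAT alike, this test contains the week 50 values by which the gene was chosen, so these p-values are descriptions. CYP7A1, the rate-limiting enzyme of bile acid synthesis, had levels of 52.03, 127, 148 and 12.9 TPM with high laying and 45.9, 39.8, 1.76 and 67.9 TPM with low laying. Its libraries spread too widely for a difference of 1.32 ± 1.005 to be told from 0.

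Nearly all fatty acid oxidation genes had higher mean values in high layers. Of 28 tested members 27 were positive, against 59.8% of all genes, with a median of 0.30. At an unadjusted p under 0.05, 3 were higher, against 1.91% of all genes in that direction, and none lower. CPT1A, the gate for fatty acids into mitochondria (chromosome 5, 16197964 to 16234089), had 56.3, 91.99, 129.6 and 79.3 TPM in the 4 high libraries and 93.4, 44.9, 44.6 and 20.9 TPM in the 4 low ones. Low replicate 1 reached into the high range, and the difference was 0.92 ± 0.41. At week 72 CPT1A differed by 0.87 ± 0.38, where its unadjusted limma p was 0.0456. ACOX2, an oxidase of peroxisomes (chromosome 12, 12022398 to 12036984), had 66.9, 100.4, 104 and 70.97 TPM in high replicates 1 to 4 and 46.3, 64.3, 58.3 and 56.4 TPM in low replicates 1 to 4, and its groups did not overlap. It differed by 0.58 ± 0.22, and HADHB, a subunit of the mitochondrial trifunctional protein, by 0.62 ± 0.30.

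High replicate 3 had the highest summed TPM of the oxidation list, 13277 against 8310 to 8726 in the other high libraries and 5926 to 7835 in the low ones. Without it 22 of 28 members were positive, none had an unadjusted p under 0.05 and the median was 0.15. At week 72 the list had a median of 0.099, with 18 of 28 positive. Of 40 glycolysis and gluconeogenesis genes 3 were under the threshold as higher, against 1.91% of all genes, and 2 as lower, against 1.16%, with 19 positive and 21 negative. PFKFB4 and PFKFB3, enzymes that set the level of fructose 2,6-bisphosphate, differed by 0.71 ± 0.31 and -1.25 ± 0.50. PFKFB3 had levels of 6.62, 6.21, 6.57 and 5.001 TPM with high laying and 8.61, 10.1, 11.4 and 59.4 TPM with low laying, and its difference was -0.63 without low replicate 4, the highest library. ENO2, an enolase, was near the detection threshold and differed by -0.59 ± 0.22.

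Most interferon-stimulated genes had lower mean values in high layers at week 50. These genes are switched on by interferons after viral or other immune signals. Of 41 tested members 36 were negative, with a median of -0.43 against 0.049 for all genes. At an unadjusted p under 0.05, 9 were lower, against 1.16% of all genes in that direction, and none was higher. In 3 of them, DHX58, LY6E and RSAD2, the groups did not overlap, against 0.515% of all genes in that direction. DHX58, a cytosolic RNA sensor (chromosome 27, 4817341 to 4825305), had 10.2, 6.09, 6.54 and 3.78 TPM in the 4 high libraries and 13.8, 11.6, 11.5 and 32.2 TPM in the 4 low ones. LY6E, a membrane protein that limits virus entry (chromosome 2, 147255592 to 147261662), had 3046, 2038, 2500 and 958 TPM in high replicates 1 to 4 and 5554, 3552, 5686 and 3104 TPM in low replicates 1 to 4. CMPK2, a nucleotide kinase of the response, had levels of 42.9, 68.9, 74.7 and 30.9 TPM with high laying and 149, 159, 107 and 59.1 TPM with low laying. The differences were -1.19 ± 0.37, -1.14 ± 0.37 and -1.10 ± 0.36, and high replicate 4 was the lowest library in all 3 genes.

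OASL, a member of the oligoadenylate synthase family, differed by -1.40 ± 0.49. The remaining 5 members under the threshold were named after their values were seen: MX1 (-1.37 ± 0.47), RSAD2 (-1.29 ± 0.50), IFIT5 (-1.57 ± 0.62), IFI6 (-1.39 ± 0.56) and RNF213 (-0.91 ± 0.39). The antiviral GTPase gene MX1 had 22.7, 33.7, 26.2 and 11.5 TPM in the 4 high libraries and 114, 66.4, 71.1 and 21.2 TPM in the 4 low ones. Low replicate 4 lay within the high range for MX1, OASL and CMPK2, as it did for the mean of the list. The median was -0.28 without high replicate 4 and -0.20 without low replicate 2. The count under the threshold was 5 without high replicate 4 and 17 without low replicate 4. Over all genes tested the lower count was 135 and 390 in those settings, against 148 with all week 50 libraries. In the fit over all 20 libraries, whose variances include the wide spread at week 72, 1 of the 41 had an unadjusted p under 0.05.

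At week 72, 36 of the 41 interferon genes were positive with a median of 0.30 and none had an unadjusted p under 0.05. For the difference between ages 37 were positive, 3 of them under the unadjusted threshold, against 2.37% of all genes in either direction. The unadjusted limma p was 0.016 for LY6E and 0.0342 for CMPK2, and the smallest adjusted p of the list was 0.99997. LY6E and CMPK2 were named by their week 50 p, which rests on values that this test contains, so both p-values are descriptions. The list summed to between 2316 and 7412 TPM in week 50 high and between 6709 and 11940 TPM in week 50 low layers. Both week 72 classes spread widely. Their replicates 1 to 4 summed to 1779, 7452, 7840 and 2261 TPM with high laying and 1422, 2452, 7491 and 2173 TPM with low laying. The week 72 median was not recomputed with libraries left out. At week 32 the list summed to between 1463 and 2918 TPM, so both week 50 classes held libraries above every week 32 library.

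Immediate early genes, the first transcripts induced by growth factors or stress, had 16 of 19 members negative with a median of -0.30. At an unadjusted p under 0.05, JUND, MYC and DUSP5 were lower, against 1.16% of all genes, and none was higher. MYC, a growth regulator, differed by -0.85 ± 0.28, DUSP5, a phosphatase that switches off ERK kinase, by -1.18 ± 0.52, and KLF6 by -0.67 ± 0.33. ATF3, a stress-induced transcription factor, had 3.32, 5.29, 8.96 and 1.85 TPM in high replicates 1 to 4 and 3.61, 25.3, 5.16 and 199 TPM in low replicates 1 to 4. Low replicate 4 exceeded every other week 50 library, and it held the highest summed TPM of the list, 3033 against 445 to 1173 in the other 7 libraries. Without that library 10 of the 19 members were negative and the median was -0.025. The median was -0.55 without high replicate 3, -0.51 without low replicate 1 and -0.59 without low replicate 2. The count was 5 without low replicate 1, where the lower count over all genes was 149. With library weights 8 of 19 members were positive and the median was -0.019, with 1 member under the threshold as higher and 2 as lower. Over all genes 611 were higher and 441 lower with these weights. At week 72 the median was -0.60 with 2 of 19 positive, and DUSP5 differed by -1.64 ± 0.51, where its unadjusted limma p was 0.00969. In the 32 heat shock protein genes 22 were negative, none was under the threshold, and HSP90AB1 differed by -0.75 ± 0.41. The heat shock list also had its highest summed TPM in low replicate 4, 21863. It summed to between 2130 and 6961 TPM in high layers and between 2662 and 3309 TPM in the other low libraries.

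**Figure D4:**
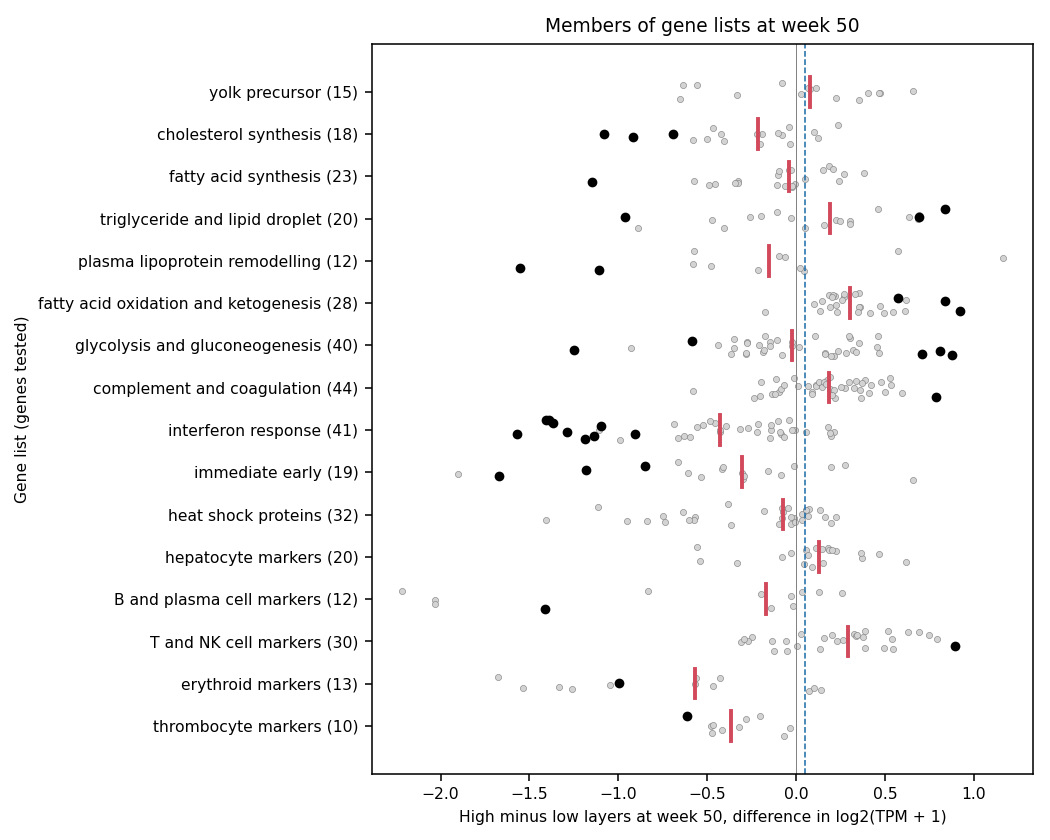
High minus low difference in log2(TPM + 1) at week 50 for each tested member of 16 gene lists. Black points had an unadjusted limma p under 0.05, red bars mark list medians, and the dashed line marks the median of all 12808 genes (0.049). Interferon response members lie to the left (median -0.43) and fatty acid oxidation members to the right (median 0.30).

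Markers of antibody-making cells split the low group. The B and plasma cell list summed to 7309 and 11771 TPM in low replicates 1 and 3, to 751 and 498 TPM in low replicates 2 and 4, and to between 555 and 1232 TPM in high layers. JCHAIN, the joining chain of secreted IgA and IgM, had levels of 43.4, 104, 17.2 and 82.6 TPM with high laying and 1053, 34.5, 1147 and 45.4 TPM with low laying. IGLL1, an immunoglobulin light chain gene of a family with similar copies, had 404, 330.5, 41.8 and 361 TPM in the 4 high libraries and 5466, 131, 9825 and 135 TPM in the 4 low ones. IGLL1 alone made up most of the list sums of low replicates 1 and 3. In JCHAIN and IGLL1 low replicates 2 and 4 lay within or near the high range. Their differences of -2.03 ± 1.13 and -2.22 ± 1.39 had intervals that crossed 0. MZB1, a chaperone of antibody secretion, differed by -2.03 ± 0.997. POU2AF1, a B cell coactivator, had 2.64, 1.05, 1.67 and 1.98 TPM in high replicates 1 to 4 and 8.91, 2.59, 13.04 and 4.96 TPM in low replicates 1 to 4. It differed by -1.41 ± 0.40 and was the only 1 of 12 tested members with an unadjusted p under 0.05, against 1.16% of all genes as lower. Its low replicate 2 lay just below high replicate 1. Of the 12 tested members 9 were negative and 3 positive, with a median of -0.17. Without low replicate 3 the signs were 6 against 6 and the median was -0.049.

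Erythroid markers were highest in low replicate 3. They summed to 3932 TPM there, to between 256 and 760 TPM in the other low libraries and to between 266 and 374 TPM in high layers. HBBA, a beta globin of a family of similar genes, had levels of 112, 73.5, 71.6 and 114 TPM with high laying and 207, 58.6, 1598 and 252 TPM with low laying, and HBAD, an alpha globin, differed by -1.68 ± 0.84. The list median was -0.57 with all libraries and -0.25 without low replicate 3. CA2 was the 1 of 13 tested members with an unadjusted p under 0.05, against 1.16% of all genes as lower. Without low replicate 2 that count was 6, and over all genes tested the lower count was 180, against 148 with all libraries. All 10 thrombocyte markers tested were negative with a median of -0.37, and 8 of 10 were negative without high replicate 1, where the median was -0.30. The list summed to only 20.7 to 38.1 TPM in high and 34.8 to 40.3 TPM in low layers. With a filter of 5 TPM 3 members remained, with a median of -0.069. With library weights 8 of 10 were negative and the median was -0.19. GP9, a subunit of the platelet adhesion receptor, differed by -0.61 ± 0.26. It was the only member under the threshold in the main fit, against 1.16% of all genes as lower. No member was under the threshold without high replicate 2 or 3, or without low replicate 1, 2 or 3. With library weights 3 were, and 2 were after median-ratio scaling, without the variance trend or without low replicate 4. Over all genes tested the lower counts in those settings were 441, 204, 151 and 390. The list median was -0.24 without high replicate 4. The part of blood or of other cells in these values was not tested.

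**Figure D5:**
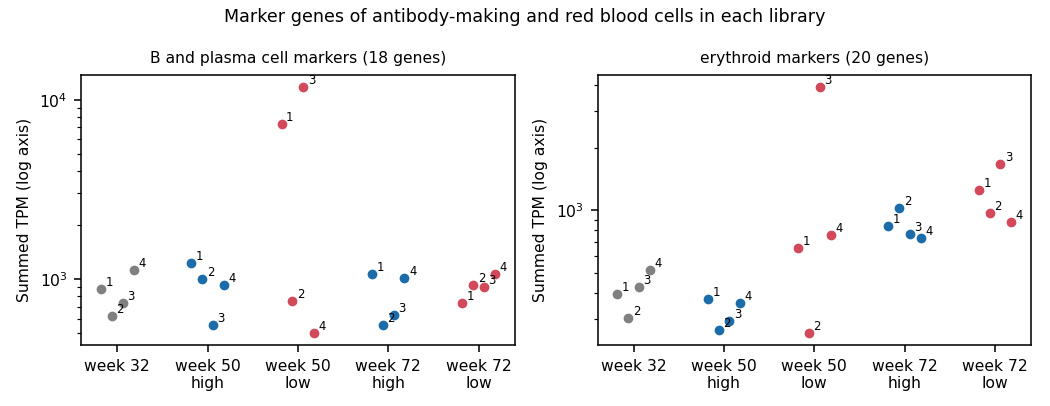
Summed TPM, on log axes, of the listed B and plasma cell markers (18 genes in the table) and erythroid markers (20 genes in the table) in each of the 20 libraries, with the replicate number beside each point. Week 50 low replicates 1 and 3 hold 7309 and 11771 TPM of the first list, most of it from IGLL1. Week 50 low replicate 3 holds 3932 TPM of the second.

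T and NK cell markers leaned the other way, with 22 of 30 positive, against 59.8% of all genes, and a median of 0.29. After median-ratio scaling 20 of 30 were positive, with a median of 0.24 against -0.0086 for all genes. CD28, the costimulatory receptor of T cells, had 8.87, 10.6, 11.3 and 5.95 TPM in the 4 high libraries and 4.53, 4.33, 6.05 and 2.999 TPM in the 4 low ones, a difference of 0.89 ± 0.27. At week 72 it differed by -0.81 ± 0.31, and the test of the change between ages had an adjusted limma p of 0.99997, 0.00306 before adjustment. CD8A, the coreceptor of cytotoxic T cells, differed by 0.79 ± 0.44. Low replicate 4 had the lowest values of CD28 and CD8A, and without it the median of the list was -0.046 with 14 of 30 positive. It was 0.46 without high replicate 1 and 0.53 without low replicate 3. No macrophage marker of 29 was under the threshold, with 15 positive and 14 negative.

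In the endothelial list 1 of 32 members had groups that did not overlap, as higher, and in the stellate and matrix list 1 of 35, against 1.26% of all genes. RGS5, a regulator of G-protein signalling found in pericytes (chromosome 8, 3692757 to 3699845), had 19.5, 37.3, 50.9 and 27.5 TPM in high replicates 1 to 4 and 15.6, 14.96, 17.6 and 11.2 TPM in low replicates 1 to 4, a difference of 1.07 ± 0.29, and was the stellate member counted. RAMP2, a receptor partner for adrenomedullin in endothelium, had levels of 145, 121, 118 and 115 TPM with high laying and 76.1, 102, 88.5 and 97.4 TPM with low laying, and was the endothelial member. RAMP2 differed by 0.45 ± 0.18 at week 50 and by 0.58 ± 0.21 at week 72, where the unadjusted limma p was 0.0193. Over all genes tested 59.8% were positive at week 50. The endothelial list had 23 of 32 members positive with a median of 0.13, and the stellate and matrix list 24 of 35 with a median of 0.14. At week 72 these were 8 of 32 with a median of -0.15 and 12 of 35 with a median of -0.10. Under the unadjusted threshold at week 72, 3 endothelial members were higher, RAMP2 among them, and 4 lower, against 3.72% and 2.05% of all genes. Cholangiocyte markers had a median of 0.10. ELF3 was the only member of 20 under the unadjusted threshold, against 1.16% of all genes as lower. EPCAM, an adhesion molecule of bile duct cells, differed by 0.44 ± 0.22.

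Of the other liver functions, complement and coagulation genes had 33 of 44 members positive, against 59.8% of all genes, and a median of 0.18. Of the 44, 1 was under the unadjusted threshold, MASP1 as higher, against 1.91% of all genes in that direction. The coagulation cofactor gene PROZ differed by 0.53 ± 0.25 and the fibrinogen chain gene FGA by 0.37 ± 0.24. Without high replicate 1, 5 of the 44 were under the threshold as higher and 1 as lower. Over all genes tested the counts there were 548 higher and 138 lower, against 244 and 148 with all week 50 libraries. The list median was 0.12 without high replicate 3. Of 45 antioxidant and conjugation genes 3 were higher and 1 was lower at that threshold, against 1.91% and 1.16% of all genes. SULT1B1, a sulfotransferase, had 128, 104, 82.6 and 66.4 TPM in the 4 high libraries and 33.9, 58.6, 63.1 and 61.95 TPM in the 4 low ones, and its groups did not overlap (0.80 ± 0.27). SOD3, the secreted superoxide dismutase, differed by 0.90 ± 0.31, the glucuronosyltransferase gene UGT2A1 by 0.72 ± 0.27, and the glutathione transferase gene GSTA3, from a family of similar genes, by -1.13 ± 0.44. CYP4B7 was the only cytochrome P450 gene of 29 under the threshold, at 0.73 ± 0.29, against 1.91% of all genes as higher.

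Among regulators, FOXA1, a pioneer transcription factor of hepatocytes, differed by 0.67 ± 0.23 and had 70.6, 48.9, 99.5 and 70.1 TPM in high replicates 1 to 4 and 49.3, 38.8, 43.1 and 44.2 TPM in low replicates 1 to 4. It was the only 1 of 31 estrogen and nuclear receptor genes under the unadjusted threshold, against 1.91% of all genes as higher. ESR2 differed by 0.90 ± 0.46. IGFBP2, a binding protein of insulin-like growth factors, differed by 1.01 ± 0.42, and CISH, a feedback inhibitor of growth hormone signalling, by 1.13 ± 0.53. The clock genes NPAS2 and NR1D2 differed by -0.58 ± 0.25 and 0.78 ± 0.38. PPP2CA, a catalytic subunit of protein phosphatase 2A (chromosome 13, 15487686 to 15503237), had levels of 2.63, 3.21, 3.54 and 3.67 TPM with high laying and 2.11, 0.874, 1.38 and 1.52 TPM with low laying. Its groups did not overlap at week 50 (0.80 ± 0.23) and it differed by -0.087 ± 0.18 at week 72. The change between ages had an adjusted limma p of 0.99997, 0.0022 before adjustment. That test contains the week 50 values by which PPP2CA was chosen, so its p is a description.

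Secretory and housekeeping lists held no member under the unadjusted threshold. These were the 43 genes of folding in the endoplasmic reticulum (median 0.026), the 19 of serine, glycine and asparagine synthesis (0.0033), the 20 acute phase genes (0.15), the 59 cell division genes (0.076), the 37 proteasome subunits (0.046), the 57 respiratory chain genes (0.025) and the 20 hepatocyte markers (0.13). HSPA5, the main chaperone of the endoplasmic reticulum, differed by -0.56 ± 0.32. Cytoplasmic ribosomal protein genes had 59 of 70 members negative, at a median of only -0.081. All 70 were negative after median-ratio scaling, and 40 of 70 were positive without low replicate 3.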

How the data were processed

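Liver RNA of 20 samples was sequenced after mRNA enrichment, as the labels' protocols say. The authors deposited a single table of TPM values, which carry no read depth, so counting error and count models were not available. The submitters' processing notes name the build GRCg7b. The annotation release, like aligner and counter, was not given in the sources used here. Groups and replicate numbers came from the sample titles.

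From the deposited TPM, log2(TPM + 1) was tested for 12808 genes (1 TPM or more in 4 or more of 20 libraries), in the 8 week 50 libraries alone, using limma (version 3.58.1, R version 4.3.3; variance trend on, 6 residual degrees of freedom, two-sided, Benjamini-Hochberg adjustment over all genes, threshold 0.05). Errors are SE of this fit unless stated. Week 72 was fitted alike in its own 8 libraries, and the difference between ages in all 20. The fits were tested on simulated data. Positions came from a RefSeq gene table of GRCg7b, which matched 12560 of the genes tested.

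The members, the 40 gene lists and the tests were chosen with earlier results of these data known. Named genes were, per direction, up to 10 called genes or else those with symbols, groups that did not overlap and the smallest p, then all yolk precursors and up to 4 members with the smallest p of each other list. Others are named as chosen after their values were seen. Values of a few genes that the rule selects are left out here. Lists are described by counts and medians beside those of all genes. Alternatives were the fit over all libraries, pseudocount, filter, scaling, replicate block, library weights, variance model and leaving out libraries.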

Additional observations from a re-analysis of the deposited data

Results flagged for a closer look

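In a group of 4 libraries, a library was picked out when its gap to the nearest other value took up more of the group's whole range on the log2(TPM + 1) scale than Dixon's 95% critical value. That value picks out about 1 in 20 groups of independent, normally spread values. Of the 206 gene and group combinations examined, 21 were picked out. The genes were chosen from these same libraries and are not independent, so the count is a description and no test of an excess. Several involved the libraries whose values leaned against long genes, and the part of that lean in them was not tested.

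Week 50 high replicate 1 had low values of APOB (272 TPM against 1894 to 2287 in the other high libraries), MTTP (31.98 against 82.1 to 95.9) and FASN (129 against 368 to 428). It also had the lowest MIR193A (1.41 against 1.63 to 1.64) and the highest AGMAT (84.4 against 72.98 to 74.7) of its group. Week 50 low replicate 3 had the highest ELF3 (155 TPM against 29.6 to 37.4 in the other low libraries) and the lowest CYP7A1 (1.76 against 39.8 to 67.9). Week 50 low replicate 4 had the highest PFKFB3 (59.4 TPM against 8.61 to 11.4), MVD (117 against 49.8 to 55.8), DHX58 (32.2 against 11.5 to 13.8) and TRNAG-GCC_4 (3.24 against 1.67 to 1.74). The same library had the lowest CYP4B7 (159 against 311 to 337) and GP9 (0.524 against 1.4999 to 1.62).

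Among the remaining high libraries, replicate 2 was listed at 0 for FGFBP1 while the others had 0.0841 to 0.0977 TPM. Replicate 3 was low for ELF3 (5.18 TPM against 11.2 to 12.7) and IGLL1 (41.8 against 330.5 to 404), and replicate 4 was high for NPAS2 (11.9 against 6.76 to 7.08) and low for RSAD2 (8.26 against 31.7 to 35.3). Among the remaining low libraries, replicate 2 was low for TTR (2776 TPM against 3921 to 4144) and high for RSAD2 (143 against 41.1 to 47.3), and replicate 1 was low for SULT1B1 (33.9 against 58.6 to 63.1).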

How the results depend on the processing

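The count of called genes was 0 in the 8 week 50 libraries. It was 2 with a pseudocount of 0.1 (MIR193A and TRNAG-GCC_4), 1 without a filter (MIR193A) and 3 with library weights (both and LOC121108725, a gene with no other name in the files). MIR193A and TRNAG-GCC_4 were listed at 0 in all libraries of 1 week 50 class, and these calls are given as descriptions. The count was 0 with the replicate block, and with the other alternatives run, leaving out each library included. Counts at an unadjusted p under 0.05, 244 higher and 148 lower, were 437 and 287 without a filter (20794 genes tested), 611 and 441 with library weights, 225 and 174 with the replicate block, and 169 and 92 with a filter of 5 TPM. They were 546 and 130 without week 50 high replicate 1 and low replicate 3, and 156 to 548 higher and 109 to 390 lower when 1 library was left out. Genes whose groups did not overlap numbered 224 to 728 higher and 97 to 527 lower with 1 library fewer, which itself makes separation easier. Same-numbered libraries of the classes had correlations of deviations of -0.211, 0.164, -0.139 and -0.039 and 2 of 8 libraries correlated best with their own number, so the numbers were not taken to pair hens. The count for the difference between ages was 0 to 18 when 1 library was left out and 0 otherwise, the replicate block included.

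The alternatives were run for 103 genes, a few of which are not named here. Of these genes, 7 changed sign under some alternative, all of them yolk precursors with differences near 0 or wide errors, and the cause was not tested. Without week 50 high replicate 1 and low replicate 3 together, VTG1 was -0.040, VTG3 -0.013, RBP -0.22 and APOA5 0.19. RBP was -0.038 after median-ratio scaling and -0.28 with library weights, where RBP4 was -0.047. With 1 library left out, VTG1 ranged from -0.074 to 1.09, VTG3 from 0.0757 to 0.89, APOB from -0.48 to 0.85, MTTP from -0.077 to 0.44, RBP from -0.13 to 0.28, RBP4 from -0.21 to 0.45 and APOA5 from -0.37 to 0.22. Depth cannot be judged from TPM, and low entries such as MIR193A, FGFBP1, CAPN13 and RAB7B rest on an unknown number of reads.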
